A study of Mus musculus with 6 samples.

Results

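The metallothionein and zinc transporter genes were described in liver of Atp7b knockout mice and of wild-type mice. They comprise the metallothioneins Mt1 and Mt2, their regulator Mtf1, the zinc importers Slc39a14, Slc39a8, Slc39a4 and Slc39a1, and the zinc exporters Slc30a5, Slc30a7 and Slc30a4. Members were every probe set of the deposited table whose annotated gene symbol is one of these 10 names. This gave 13 of the 11811 probe sets and 10 of the 7164 genes named by 1 symbol. Mt1, Slc39a14 and Slc39a8 had a pair of probe sets each and the other 7 genes had 1 each. A probe set is the group of short probes on an Affymetrix array that together report 1 transcript, given below by the number in its name.

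Total liver RNA of 3 samples labelled ATP7B KO mouse (KO903, KO904 and KO905) and of 3 samples labelled wild-type mouse (WT4, WT5 and WT6) was hybridised to 1 array each. Atp7b encodes the copper-transporting ATPase that loads copper into bile and ceruloplasmin, and its loss causes Wilson disease. The series title places the samples early in copper accumulation. The labels cite an earlier publication for the knockout line but state no allele, strain, sex, age or diet for either group, and do not say outright that the samples came from separate animals. P-values therefore weigh a group difference only against the spread among these samples, which may not be that among animals. The table holds MAS 5.0 signals on a linear scale, and differences are given as log2(signal + 16), knockout minus wild type. Array medians lay between 330.15 and 342.35.

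Metallothioneins are small, cysteine-rich proteins that bind zinc and copper in the cytosol, and liver is one of their main sites. Their genes are switched on by the zinc-sensing transcription factor MTF1, which binds short metal response elements, and also by glucocorticoids and by inflammatory signals. Proteins of the SLC39 (ZIP) family carry zinc into the cytosol, and those of the SLC30 (ZnT) family carry it out, to the blood side or into organelles.

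Of the 13 member probe sets, all of which passed the minimum mean signal of 100, 5 were called higher in the knockout and 1 lower at an adjusted p of 0.05 in limma. Across all 10620 tested probe sets 2.05% were called higher and 2.09% lower, 4.14% in all. The called ones read Mt1, Mt2 and Slc39a8 (higher) and Slc39a14 (lower), and 6 of the 10 genes had no called probe set. Without KO904 the count called higher was 2, without KO903, KO905, WT5 or WT6 it was 3, and without WT4 it was 4. For 8 of the 13 there was no overlap between the groups, as for 23.6% of all tested probe sets. The members had been chosen with earlier results of these data known, so these shares describe them and are not independent evidence. The median log2 difference was 0.28 over the 13 members and 0.03 over all tested probe sets. In whole liver, a change in the number of cells of a type and a change in RNA per cell cannot be told apart.

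**Figure D1:**
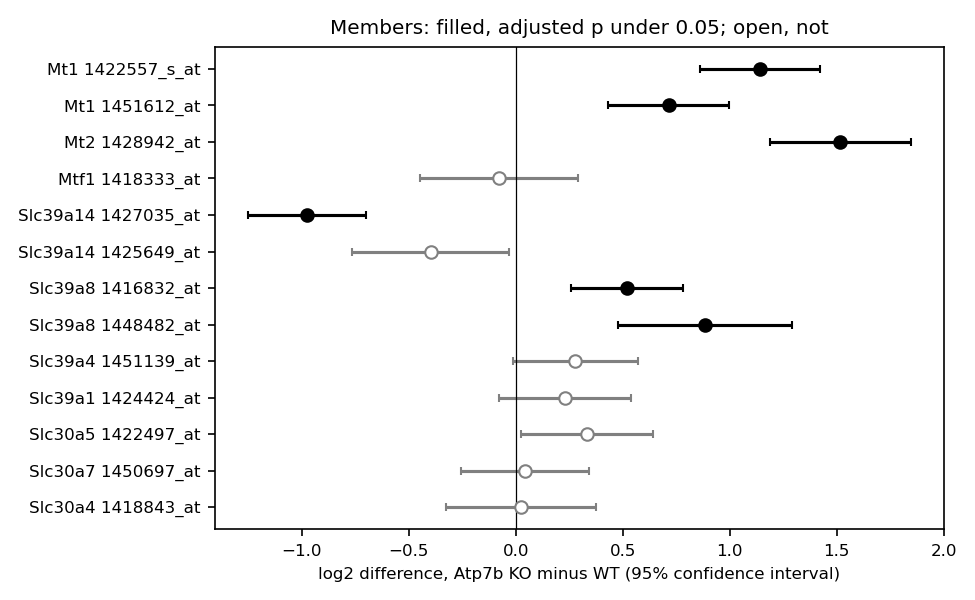
Log2 difference (Atp7b KO minus WT, horizontal axis) of each of the 13 member probe sets, with its 95% confidence interval from limma; filled points passed an adjusted p of 0.05. The 3 metallothionein probe sets and both Slc39a8 probe sets lie to the right of 0, and the brighter Slc39a14 probe set lies to the left at -0.98.

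Mt2 had the largest change of the members. Its probe set (1428942) read 18966, 22112 and 18935 in KO903, KO904 and KO905, against 5414, 7193 and 8669 in WT4, WT5 and WT6. Every knockout array lay above every wild-type array. The means were 20004 ± 1825 in the 3 knockout arrays and 7092 ± 1630 in the 3 wild-type arrays (± SD). The difference of log2(signal + 16) was 1.52 ± 0.15 (SE; 95% confidence interval 1.19 to 1.85; adjusted p = 0.000341), the 15th highest of all 10620, which corresponds to 2.86-fold. Fold changes here and below are taken from this scale.

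Mt1 was read by a bright and a dim probe set. The bright one (1422557) gave 26866, 29183 and 22819 in KO903, KO904 and KO905, against 11109.8, 10551 and 14242 in WT4, WT5 and WT6. Again no wild-type array reached the lowest knockout value. The log2 difference was 1.14 ± 0.13 (SE; 95% confidence interval 0.86 to 1.42; adjusted p = 0.000747), a 2.20-fold increase. The dim one (1451612) gave 526, 610.2 and 536 in the knockout, against 307, 352 and 342 in wild type. It rose 1.64-fold, by a log2 difference of 0.71 ± 0.13 with an adjusted p of 0.0122, and was no longer called without KO904 (log2 0.65, adjusted p = 0.0608). The full name of the bright probe set ends in _s_at, which marks probes that may bind more than 1 transcript, so a share of Mt2 signal in it was not tested.

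KO904 was the highest knockout array on all 3 metallothionein probe sets, while the wild-type order differed between them. Per array, log2 Mt2 minus log2 Mt1 (bright probe set) was larger in the knockout by 0.38, and no knockout array overlapped a wild-type one. The exact permutation test over samples gave p = 0.1, the smallest that 3 against 3 arrays allow. Against the dim Mt1 probe set the gap was 0.80 (exact p = 0.1), and between the bright and dim Mt1 probe sets it was 0.43 (exact p = 0.1). With 5 such pairs examined, the Benjamini-Hochberg adjusted value was 0.125 for each of these 3. The unequal sizes of the rise therefore did not pass a test, in a design that could not pass one.

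Among the 124 tested probe sets with a mean signal of at least 10000, Mt2 and Mt1 had the largest log2 differences. The other 122 lay between -1.07 and 0.49, and in all 3 of the 124 were called higher and 3 lower. In KO904 the bright Mt1 probe set read 29183, close to the highest signal of any probe set on that array (30279). Compression of signal at that height was not tested.

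**Figure D2:**
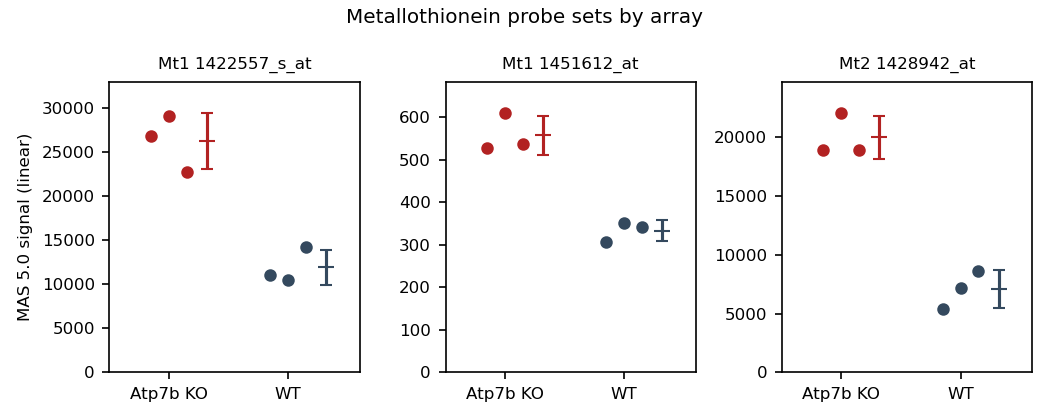
MAS 5.0 signal (linear vertical axis, from 0) of the 3 metallothionein probe sets in each Atp7b KO array (red) and each WT array (blue); points are arrays in label order, and bars are the mean and SD. In each panel the 3 knockout arrays lie above the 3 wild-type arrays.

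**Figure D3:**
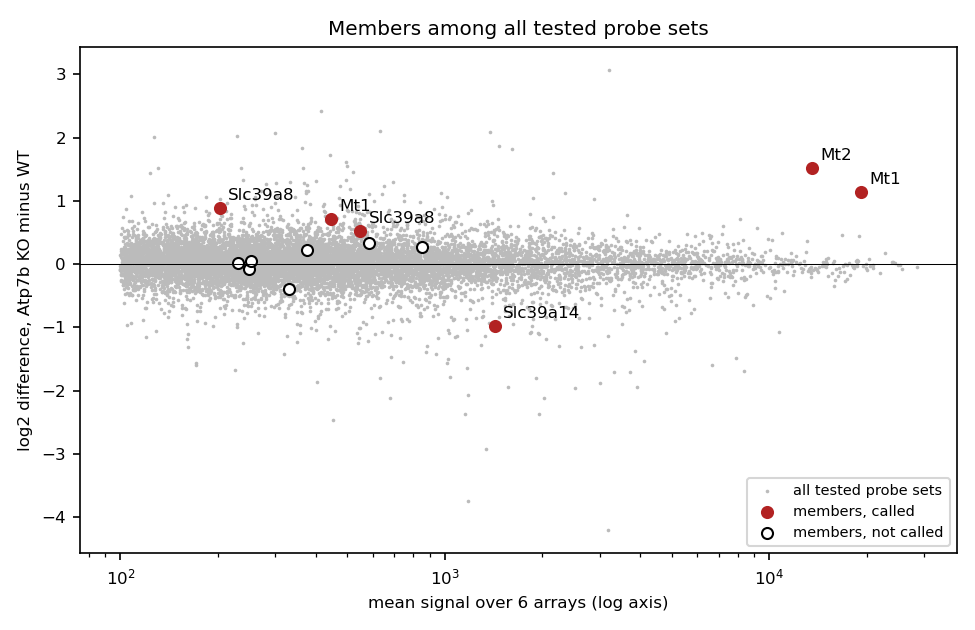
Log2 difference (Atp7b KO minus WT) against mean signal over the 6 arrays (log axis) for the 10620 tested probe sets (grey), with called members in red and uncalled members as open circles. The bright Mt1 and Mt2 probe sets stand above the other probe sets of similar signal, and the remaining members lie at mean signals from 202 (Slc39a8) to 1424.5 (Slc39a14).

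The promoters of Mt1 and Mt2 are shown because these genes moved together and because MTF1 is known to act through the core of the metal response element. The windows run from 250 bases before to 50 bases after each annotated start (RefSeq, GRCm38.p6, plus strand), and are at chr8:94178839-94179138 for Mt1 and chr8:94172368-94172667 for Mt2. Capitals mark copies of the core, searched as TGCACNC and TGCGCNC on both strands.
Mt1: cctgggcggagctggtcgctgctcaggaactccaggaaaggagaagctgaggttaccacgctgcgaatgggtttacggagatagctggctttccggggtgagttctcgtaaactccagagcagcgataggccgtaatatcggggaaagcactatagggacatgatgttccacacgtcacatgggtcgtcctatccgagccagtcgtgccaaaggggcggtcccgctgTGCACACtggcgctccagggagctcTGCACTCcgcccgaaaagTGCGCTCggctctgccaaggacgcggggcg
Mt2: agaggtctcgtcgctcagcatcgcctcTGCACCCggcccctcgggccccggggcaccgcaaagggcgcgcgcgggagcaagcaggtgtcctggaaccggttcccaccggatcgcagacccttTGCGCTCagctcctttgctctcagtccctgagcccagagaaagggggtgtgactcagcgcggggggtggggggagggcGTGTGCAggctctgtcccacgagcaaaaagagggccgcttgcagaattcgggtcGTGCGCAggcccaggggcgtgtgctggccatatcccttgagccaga
The Mt1 window held 3 copies, 1 of them before the annotated start, and the Mt2 window 4, with 3 before the start. The annotated starts were not checked, and copies outside the windows were not searched for. These counts therefore do not compare the whole promoters of Mt1 and Mt2. Of 32851 mouse windows of the same length, 25.7% held at least 1 copy, 1.97% at least 3 and 0.517% at least 4. G and C made up 60.7% of the Mt1 window and 67.7% of the Mt2 window, above the median of 52.7%, and the core is itself rich in G and C. Windows were at hand for 8 of the 10 members (9 windows, as Slc39a8 has a pair of annotated starts). Besides Mt1 and Mt2, a copy was found in Slc30a4 (3 copies, with 81.7% G and C), in Slc30a5 (1) and in 1 of the Slc39a8 windows (1). The windows of Mtf1, Slc39a1 and Slc30a7 held no such letters. A match is a string of letters and not a measured binding site. Slc30a4 showed no called change, and the part of such copies in any change was not tested. No promoter window was printed for Slc39a14 or Slc39a4.

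Mtf1, the gene of the regulator itself, was not called. It read 211, 231 and 282 in the knockout and 256, 298 and 214 in wild type, and the groups overlapped. The log2 difference was -0.08 ± 0.17 (SE; 95% confidence interval -0.45 to 0.29; adjusted p = 0.857). These are transcript signals, and the activity of the protein was not measured.

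Slc39a14, which encodes ZIP14, a hepatocyte importer of zinc, manganese and iron, was the only member called lower. Its brighter probe set (1427035) gave 837, 989 and 1042 in KO903, KO904 and KO905, against 1799, 1775 and 2106 in WT4, WT5 and WT6. The groups were far apart, and the knockout was 1.97-fold lower. The log2 difference was -0.98 ± 0.12 (SE; 95% confidence interval -1.25 to -0.70; adjusted p = 0.0018), and it kept its call under each of the 15 alternatives run, with values from -1.04 to -0.88.

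The dimmer Slc39a14 probe set (1425649) gave 261, 254 and 331 in the knockout, against 441, 384 and 309 in wild type. KO905 lay above WT6, so the groups overlapped. Its log2 difference was -0.40 ± 0.17 (SE; 95% confidence interval -0.76 to -0.03), with an unadjusted p of 0.0355 and an adjusted p of 0.236. The brighter probe set changed by 0.58 more on the log2 scale (difference of differences -0.58, exact permutation p = 0.1, the smallest possible; 0.125 after adjustment over the 5 pairs). Which transcript ends or isoforms each probe set reads was not examined.

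Slc39a8 encodes ZIP8, the closest relative of ZIP14, which carries zinc, manganese and cadmium and takes manganese back from bile. The brighter of its probe sets (1416832) gave 651.5, 606 and 692 in KO903, KO904 and KO905, against 458, 432 and 451.5 in WT4, WT5 and WT6. The dimmer (1448482) gave 242, 272 and 283 in the knockout, against 182, 110.4 and 125 in wild type. On both, each knockout array was above each wild-type array. The log2 differences were 0.52 ± 0.12 (SE; adjusted p = 0.0353) and 0.89 ± 0.19 (SE; adjusted p = 0.0245), or 1.44-fold and 1.85-fold.

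These Slc39a8 calls were near the threshold. The call of the brighter probe set was lost when any of the 6 arrays was left out (adjusted p from 0.0652 to 0.123). That of the dimmer was lost without KO903, KO904, KO905, WT5 or WT6 (0.0522 to 0.0941) but not without WT4, when its log2 difference was 1.08 (adjusted p = 0.0132). The signs did not change. The difference between the responses of the 2 probe sets was -0.36 (exact permutation p = 0.2).

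Slc39a8 is also expressed by macrophages, and markers of Kupffer cells, the macrophages of liver, were read beside it. Of 9 listed markers 7 were tested, and all 7 had log2 differences above 0, with a median of 0.33. None was called by limma, with 3 at an unadjusted p under 0.05, and none was at 0. Among all 10620 tested probe sets, an unadjusted limma p of 0.0497 ranked 1896th from the smallest and one of 0.0505 ranked 1912th. At least 1896 probe sets therefore passed that cut, and the counts at it for the lists below have the same background. This background counts probe sets, while the lists count genes. Their summed signal was 5166 to 6982 in the knockout arrays and 3788 to 5225 in the wild-type arrays. Among wild-type arrays, WT4 had the highest sum (5225) and the highest Slc39a8 signal on both probe sets. Among knockout arrays the orders differed: KO905 had the lowest sum (5166) and the highest Slc39a8 signal on both probe sets, and KO903 had the highest sum (6982) and the lowest signal on the dimmer one. The part of these cells in the Slc39a8 result was not tested.

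The remaining importers were not called. Slc39a4 encodes ZIP4, the zinc importer of the intestine that is mutated in the human disorder acrodermatitis enteropathica. It read 1113, 835 and 863.5 in the knockout and 765, 778 and 750.4 in wild type, and did not overlap between groups although KO903 stood well above the other knockout arrays. Its log2 difference was 0.28 ± 0.13 (SE; 95% confidence interval -0.02 to 0.57; adjusted p = 0.308). Slc39a1, which encodes the widely expressed plasma membrane importer ZIP1, read 449, 392 and 380.3 in the knockout and 328, 315 and 393 in wild type. Here WT6 exceeded KO904 and KO905. The log2 difference was 0.23 ± 0.14 (SE; 95% confidence interval -0.08 to 0.54; adjusted p = 0.433).

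Nor was any of the 3 exporters called. Slc30a5 encodes ZnT5, which moves zinc into the early secretory pathway. It read 689.5, 738 and 540.4 in the knockout and 504, 538 and 499 in wild type, with KO905 only just above WT5. The log2 difference was 0.33 ± 0.14 (SE; 95% confidence interval 0.02 to 0.64), with an unadjusted p of 0.0366 and an adjusted p of 0.239. Slc30a7, for the Golgi transporter ZnT7, read 279.8, 253 and 237 in the knockout and 239, 251 and 254 in wild type. Its log2 difference was 0.04 ± 0.14 (SE; 95% confidence interval -0.26 to 0.34). Slc30a4 encodes ZnT4, whose loss gives the lethal milk mouse. It read 212, 248 and 235 in the knockout and 253, 248 and 186 in wild type. Its log2 difference was 0.02 ± 0.16 (SE; 95% confidence interval -0.33 to 0.37). The intervals of Slc30a7 and Slc30a4 left out changes of 2-fold in either direction. The sign for Slc30a4 turned after quantile normalization (-0.01) and after centring arrays on their medians (-0.0026), and those for Mtf1 and Slc30a7 turned only when 1 array was left out.

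**Figure D4:**
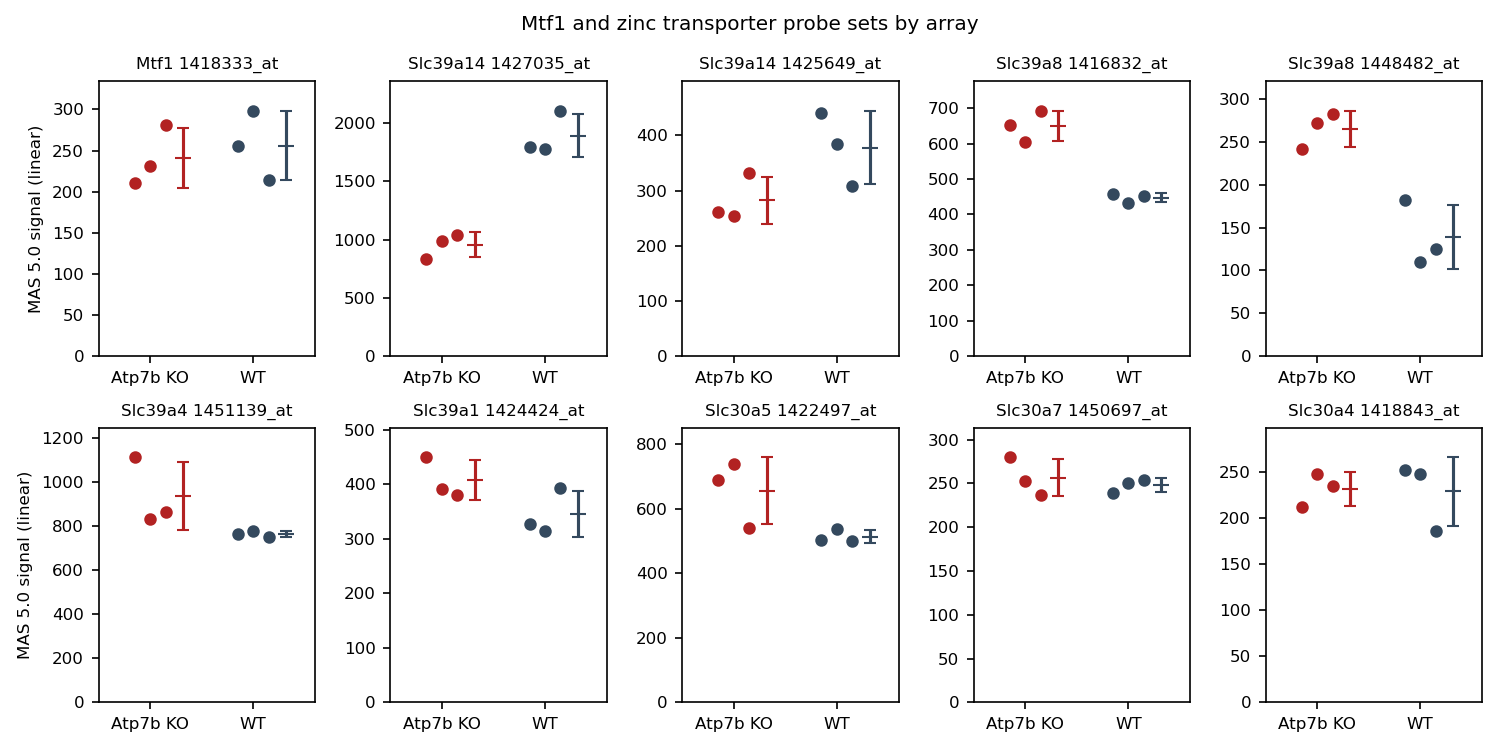
MAS 5.0 signal (linear vertical axes, from 0) of the Mtf1 probe set and the 9 zinc transporter probe sets in each Atp7b KO array (red) and each WT array (blue), with mean and SD bars. The groups are widely apart for the brighter Slc39a14 probe set (lower in the knockout) and apart for both Slc39a8 probe sets (higher in the knockout). Slc39a4 and Slc30a5 are also apart (higher in the knockout) but were not called. The groups overlap for the dimmer Slc39a14 probe set, Mtf1, Slc39a1, Slc30a7 and Slc30a4.

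Other genes of these families showed no called change. Of 19 further metallothionein, SLC30 and SLC39 genes, 6 were tested, and limma called 0 of them higher and 0 lower (0 at an unadjusted p under 0.05). In all 6604 tested genes, each represented by its brightest probe set, 3.94% were called. Their log2 differences ran from -0.17 to 0.20 with a median of 0.05, beside 0.03 for all tested genes. Those with the smallest p were Slc39a9, a Golgi importer (0.20, adjusted p = 0.537), and Slc30a6, which encodes ZnT6, the partner of ZnT5 (0.17, adjusted p = 0.54). Slc30a1, the exporter known as a target of MTF1, was not analysed here.

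Genes reported elsewhere as targets of MTF1 were set beside the metallothioneins. The list of 10 was drawn up with earlier values of Selenoh and Gclc in view, and it is not independent evidence. Of its genes 6 were tested, 3 were called higher and 0 lower (2 to 4 higher when 1 array was left out), where 2.14% of all genes were called higher and 1.8% lower. The median log2 difference of the list was 0.70.

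Selenoh, a nuclear selenoprotein gene, read 1049.6, 911 and 1147 in the knockout, against 192, 246.5 and 247.5 in wild type. It was 4.31-fold higher (log2 2.11 ± 0.15 SE, adjusted p = 4.57e-05). Ndrg1, a gene induced by stress and by metals, read 739, 536 and 746 in the knockout, against 251.5, 266 and 307 in wild type (log2 1.24 ± 0.16 SE, adjusted p = 0.00174). Both other probe sets of Ndrg1 also rose, by 2.02 and 1.28 on the log2 scale. Gclc, whose product starts glutathione synthesis, rose by 0.58 ± 0.11 (SE; adjusted p = 0.0154), and by 0.60 on its other probe set (adjusted p = 0.0154).

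The other 3 genes of that list were not called. Csrp1, which encodes a LIM domain protein, had 145, 137 and 171 in the knockout and 92.7, 112 and 43.2 in wild type (log2 0.83, adjusted p = 0.116), with no overlap. Selenow, a small selenoprotein gene, had a log2 difference of -0.06 on its brighter probe set and 0.20 on the other. Hamp, the gene of the iron hormone hepcidin, had 13486, 13506 and 11578 in the knockout and 12271, 13069 and 13509 in wild type, a log2 difference of -0.01.

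**Figure D5:**
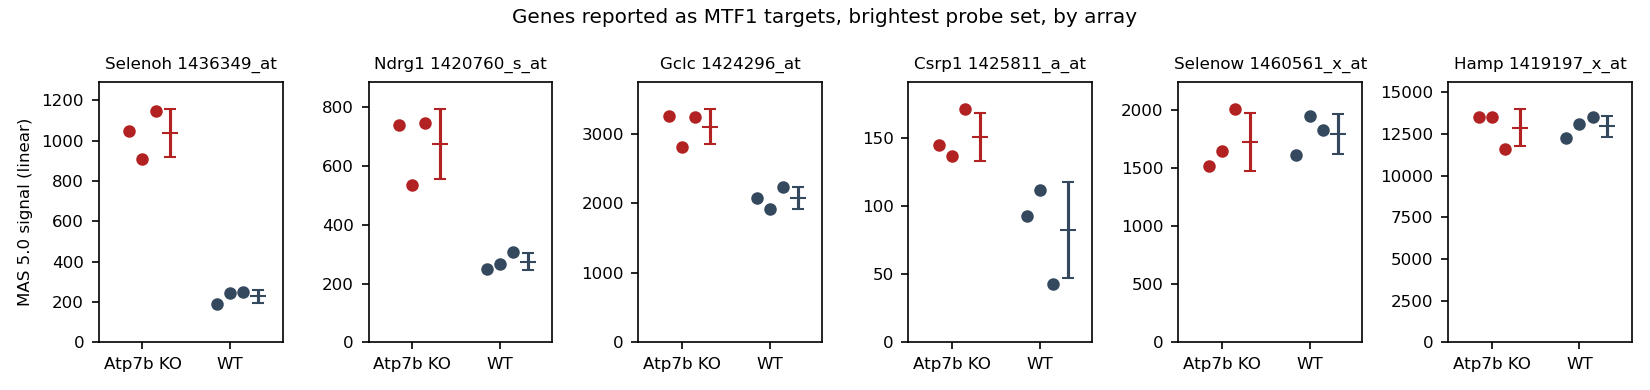
MAS 5.0 signal (linear vertical axes, from 0) of the 6 tested genes reported as MTF1 targets, brightest probe set, in each Atp7b KO array (red) and each WT array (blue), with mean and SD bars. Selenoh, Ndrg1 and Gclc are apart between groups and were called, Csrp1 is apart but was not called, and Selenow and Hamp overlap.

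Metallothionein genes and Slc39a14 are also known to respond to interleukin-6 and the acute phase, so acute phase genes were counted. Of 25 listed genes 22 were tested, with 6 at an unadjusted p under 0.05 in limma and a median log2 difference of -0.03. That cut was passed by at least 1896 of all 10620 tested probe sets. Lbp (log2 0.46) and Serpina3n (log2 0.42) were called higher and none lower, where 2.14% of all genes were called higher and 1.8% lower. Both calls were lost when any of the 6 arrays was left out. Steap4 (log2 0.45, adjusted p = 0.0775) and Itih3 (log2 -0.45, adjusted p = 0.122) came next. The serum amyloid gene Saa1 had lower values in the knockout without a call (log2 -0.31). Its dimmer probe set overlapped between groups (log2 -0.29). Saa2 was also lower without a call (log2 -0.35). Saa3 (log2 0.07) and Saa4 (log2 -0.07 on its brightest probe set) overlapped between groups.

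Glucocorticoids, a further known inducer of metallothionein genes, were followed through 12 responsive genes, all tested. Limma called 0 higher and 1 lower, where 2.14% of all genes were called higher and 1.8% lower. At an unadjusted p under 0.05 there were 5, a cut passed by at least 1896 of all 10620 tested probe sets. The median log2 difference was -0.14. The called gene was Fkbp5, a chaperone of the glucocorticoid receptor, with 656, 1143 and 1056 in the knockout, against 1633, 1539 and 1807 in wild type (log2 -0.83 ± 0.18 SE, adjusted p = 0.0329). Its call was lost without KO903, WT4 or WT6, and the other Fkbp5 probe set was not called (log2 -0.67, adjusted p = 0.123). Tdo2, a tryptophan breakdown gene, was not called on its brightest probe set (log2 -0.13) but fell on its dimmer one (log2 -0.71, adjusted p = 0.033). The clock gene Per1 (log2 -0.95, adjusted p = 0.0675) and the phosphatase gene Dusp1 (log2 0.76, adjusted p = 0.0765) went opposite ways without a call. The part of these signals in the metallothionein result was not tested.

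Mt1 and Mt2 lie side by side on chromosome 8, next to Mt3 and Mt4. Of the 5 named protein-coding genes on either side, 3 were tested, and 1 was called, beside 3.94% of all tested genes. The called gene was Herpud1, a gene of endoplasmic reticulum protein degradation. Its log2 difference was -0.67 (adjusted p = 0.0213) and, on its other probe set, -0.76 (adjusted p = 0.00803). The call of the brighter Herpud1 probe set was lost without KO903, KO904 or WT4; the other was not rerun. Nup93 (log2 0.22) and Nudt21 (log2 0.13) were not called. Of the 10 neighbours of Slc39a14, 2 were tested and 0 called by limma (0 at an unadjusted p under 0.05), namely Bin3 (log2 0.22) and Bmp1 (log2 -0.09). Of the 10 of Slc39a8, 4 were tested and 0 called (1 at an unadjusted p under 0.05, Ube2d3, log2 0.47). The probe sets of Ube2d3 disagreed, and another of them was called lower (log2 -0.63, adjusted p = 0.0419). Among these 4, H2az1 had a log2 difference of 0.17 on its brightest probe set and -0.51 on its other, neither called.

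The genes with the pattern most like each called member were found by the root mean square difference between log2 signals over the 6 arrays, each centred on its own mean, among 6594 other genes. For Mt1 they were Ocln, a tight junction gene (0.13), Ndc1, a nuclear pore gene (0.14), and Ncaph, a condensin gene (0.16). For Mt2 they were Cyp7b1, of bile acid synthesis (0.18), the histone demethylase gene Kdm2b (0.18) and the kinetochore gene Cenpq (0.20). Mt1 and Mt2 differed from each other by 0.25 on this measure, more than either did from those genes. Those genes were picked as the closest of the 6594, so this comparison does not rank how alike Mt1 and Mt2 are. For Slc39a14 they were Cpq, a secreted carboxypeptidase gene (0.11), Crim1 (0.11) and the steroid dehydrogenase gene Hsd3b3 (0.11). For Slc39a8 they were Trmt10b (0.06), Chmp3 (0.06) and the proteasome gene Psmc2 (0.06). Of these, limma called Psmc2 higher, but not Trmt10b (adjusted p = 0.0596) or Chmp3 (adjusted p = 0.0718). Only the brightest probe set of each member was matched. These distances carry no test.

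The labelled tissue was checked on hepatocyte markers. Of 6 listed 5 were tested, and Alb, the albumin gene, read 21782 to 25884 in the knockout and 21282 to 27522 in wild type. Limma called 0 of the 5 (0 at an unadjusted p under 0.05), and log2 differences ran from -0.08 to 0.09. The targeted gene, Atp7b, read 240.5, 232 and 185 in the knockout and 259, 299.7 and 241 in wild type (log2 -0.27 ± 0.16 SE, adjusted p = 0.407). The place of its probe set relative to the disrupted part was not examined, so the array does not check the genotype.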

How the data were processed

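The values used are intensity values deposited by the authors, MAS 5.0 signals of Affymetrix arrays with 1 scaling factor per array and a target of 350, per the labels and the submitters' processing notes. Per the labels, RNA was extracted with TRIzol and an RNeasy column and labelled with an Enzo kit. The sources used here do not state how the 11811 probe sets were chosen. The 33 control probe sets and 1158 with a mean signal under 100 were left out. Signals were taken as log2(signal + 16) and fitted with limma (lmFit, then eBayes with its trend option). P-values were two-sided and adjusted by Benjamini-Hochberg over the 10620 probe sets tested, and 0.05 was the threshold. Pairs of probe sets were compared with exact permutation tests, which cannot go below 0.1 with 3 against 3. Depth does not apply to arrays, and their number limits the precision. No arrays were duplicates (at most 0.0847% identical values).

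Symbols came from the platform annotation, and updating them by Entrez number in RefSeq's GRCm38.p6 gene table changed 0. Of the non-control probe sets 10776 had 1 symbol, 418 several and 584 none. In gene lists the brightest tested probe set stood for a gene. Members and lists were chosen with earlier results of these data known. Named were all members, Atp7b, the called and the 2 next genes of each list, and the 3 genes most like each called member. Saa1, Saa2, Saa3, Saa4, Hamp, Tdo2, Alb and marker genes were named after their values were seen. The scripts were tested on simulated data. Alternatives were quantile normalization, median centring, a pseudocount of 1 or 64, no filter or a minimum of 200, eBayes without the trend, robust eBayes, array weights, each array left out, a threshold of 0.10, and probe sets of 1 gene averaged. Versions were R 4.3.3, limma 3.58.1, Python 3.11.15 and matplotlib 3.10.9.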

Additional observations from a re-analysis of the deposited data

How the results depend on the processing

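Across 15 alternatives for each of the 13 member probe sets (195 values), 176 kept their direction and their side of the threshold, 12 lost a call and 7 changed sign. The losses were Slc39a8 (11) and the dim Mt1 probe set (1), all with 1 array left out. Sign changes were Slc30a4 after quantile normalization (-0.013) and median centring (-0.0026) and, with 1 array left out, Slc30a4 (-0.11 to 0.097), Mtf1 (-0.19 to 0.031) and Slc30a7 (-0.016 to 0.096), none called. Members called higher numbered 2 to 4 with 1 array left out and 5 under every other setting run; 1 was called lower throughout. Over all probe sets, 175 to 469 were called with 1 array left out, and 786 (408 higher, 378 lower) at a threshold of 0.10. The acute phase list had 1 gene called higher after median centring and 0 without the trend; with 1 array left out it had 0 higher and 0 to 1 lower. Without the trend the glucocorticoid list had 0 lower and the Mt1 and Mt2 neighbours 0 lower, and with 1 array left out each had 0 to 1 lower. The Slc39a8 neighbours had 0 to 1 higher with 1 array left out. No paired analysis was possible because the groups share no sample number. Signals near 200, such as the dimmer Slc39a8 probe set, are noisy in MAS 5.0, and no detection calls were used.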

Other observations

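Among the markers of cells other than hepatocytes, 3 genes were called higher in the knockout, where 2.14% of all tested genes were called higher. The markers tested were 7 Kupffer, 6 endothelial, 3 stellate, 2 exocrine pancreas, 1 erythroid and 1 lymphocyte genes. Alas2, the erythroid enzyme that starts heme synthesis and the only tested gene of the erythroid list, read 894, 835 and 714 in the knockout, against 377, 418 and 399 in wild type (log2 0.999 ± 0.129 SE, adjusted p = 0.00183). Cela1, an elastase gene from the exocrine pancreas list (2 tested), read 1138, 1360.1 and 1309 in the knockout, against 619, 804 and 794 in wild type (log2 0.77, adjusted p = 0.0106), while Cel of the same list had a log2 difference of 0.17. Rgs5, a pericyte and stellate cell gene, read 864, 934 and 757 in the knockout, against 620.1, 497 and 438 in wild type (log2 0.71, adjusted p = 0.0251), while the other 2 tested stellate genes, Dcn (0.21) and Col3a1 (-0.46), were not called. Of 6 tested endothelial markers limma called 0 (3 at an unadjusted p under 0.05), with a median of 0.14. Those 3 went both ways, with Stab2 (log2 0.36) and Clec4g (0.32) higher in the knockout and Lyve1 (-0.56) lower. The 1 tested lymphocyte marker, Ms4a1, had a log2 difference of 0.40 without a call. The labels give no sex. Xist, the transcript of the inactive X chromosome, read 4284, 3617 and 3887 in the knockout and 2943, 4048 and 3529 in wild type, so it was bright on all 6 arrays and overlapped between groups.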
